A study of Homo sapiens with 6 samples.

Results

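Heat shock proteins, the cytosolic chaperonin and their co-chaperones were examined as a set of 37 genes, chosen by name, out of 21462 genes in the count table. The set held the transcription factor HSF1, 10 genes of the HSP70 system, 2 small heat shock proteins, 2 cytosolic HSP90 chaperones, 5 co-chaperones, 4 mitochondrial chaperones, 8 chaperonin subunits and 5 prefoldin subunits. Messenger RNA had been sequenced from HO-1-N-1, an established line of oral squamous carcinoma cells, with the aim of finding genes whose expression is affected by knockdown of Sam68. Cells had received an siRNA against Sam68 (replicates 1, 2 and 3) or a control siRNA (replicates 1, 3 and 5), both delivered with the transfection reagent HilyMax, so the lipid transfection was shared by both groups. Neither the siRNA sequences nor the time of harvest is stated in the labels. The labels also leave unsaid whether libraries stem from separate cultures, so a p-value here reflects the spread among these 6 libraries alone, and that spread may be technical.

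Molecular chaperones bind unfolded or partly folded proteins and use ATP cycles, or simple holding, to keep them from aggregating. HSP70 receives clients from J-domain proteins and passes a part of them to HSP90, while the ring-shaped chaperonin folds actin and tubulin that prefoldin delivers. In unstressed cells HSF1 is held inactive by chaperones, and when unfolded proteins accumulate it binds heat shock elements and raises transcription of many of these genes. In tumour cells chaperones are commonly abundant, and HSF1 is known to support malignant growth.

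The 6 libraries held 16099488 to 17336651 counts each. KHDRBS1, the gene of Sam68, had 26.4, 31.0 and 28.8 CPM (counts scaled to a common library size) with Sam68 siRNA, against 227, 205 and 184 CPM with control siRNA. The knockdown was therefore visible in each library, with a log2 fold change of -2.84 ± 0.09 (SE, n = 3 each; adjusted p = 1.56e-08, edgeR's quasi-likelihood test with Benjamini-Hochberg adjustment). Control replicate 5 stood apart from the other libraries, with 2.27% of its counts on the mitochondrial genome, against 0.158% to 0.671% in the other 5, so results are also given without it. Summed TPM (a share of transcripts scaled for gene length by the authors) of 7 squamous epithelial markers was 8344 to 8772 with Sam68 siRNA and 7591 to 7950 with control siRNA. Fibroblast markers summed to 2.49 to 4.01 TPM with Sam68 siRNA and 2.56 to 7.26 TPM with control siRNA, and endothelial, leukocyte and melanocyte markers to under 2 TPM in every library. PDGFRA, a fibroblast marker, and TYR, a melanocyte marker, had no count in any library. The part of these differences in the results below was not tested.

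Few of the chaperone genes passed the test after Sam68 knockdown. Of the 37 genes, 36 passed the filter on low counts and were tested, and 3 of them rose: CCT8, HSPE1 and TRAP1. None fell at an adjusted p below 0.05 in edgeR's quasi-likelihood test, and 33 did not pass. DESeq2 called 4 rises and 2 falls among the members, when 8.52% of all tested genes rose and 9.04% fell by that tool. The limma-voom test called 4 rises and 1 fall, when 9.46% of all tested genes rose and 9.63% fell. By edgeR's test, called genes made up 8.33% of the tested members, against 19.1% of all 12351 tested genes. Rises made up 9.33% and falls 9.76% of all tested genes. At the expression level of these genes (4666 genes at or above 48.0 CPM, the lowest mean of a tested member) 23.9% of genes were called. At an unadjusted p below 0.05, 8 members passed, 4 higher and 4 lower with Sam68 siRNA (22.2%), as did 4091 of all tested genes (33.1%). The libraries of the groups did not overlap for 8 members (22.2%), 3 of them higher and 5 lower with Sam68 siRNA, against 38% of all tested genes. The median log2 fold change was 0.02 over the members and -0.005 over all tested genes, and its median size regardless of sign was 0.08 in members, 0.15 in all tested genes and 0.12 in genes at the members' level.

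The absence of a call does not by itself show equal levels, and the intervals give what the data allow. Of the 33 tested members without a call, 28 had a 95% interval of the fold that lay within 1.25-fold in either direction, and all 33 lay within 1.5-fold. The lowest bound among them was 0.728-fold and the highest 1.32-fold. In RNA pooled from many cells, a change in the share of cells that express a gene and a change in RNA per cell cannot be told apart.

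**Figure D1:**
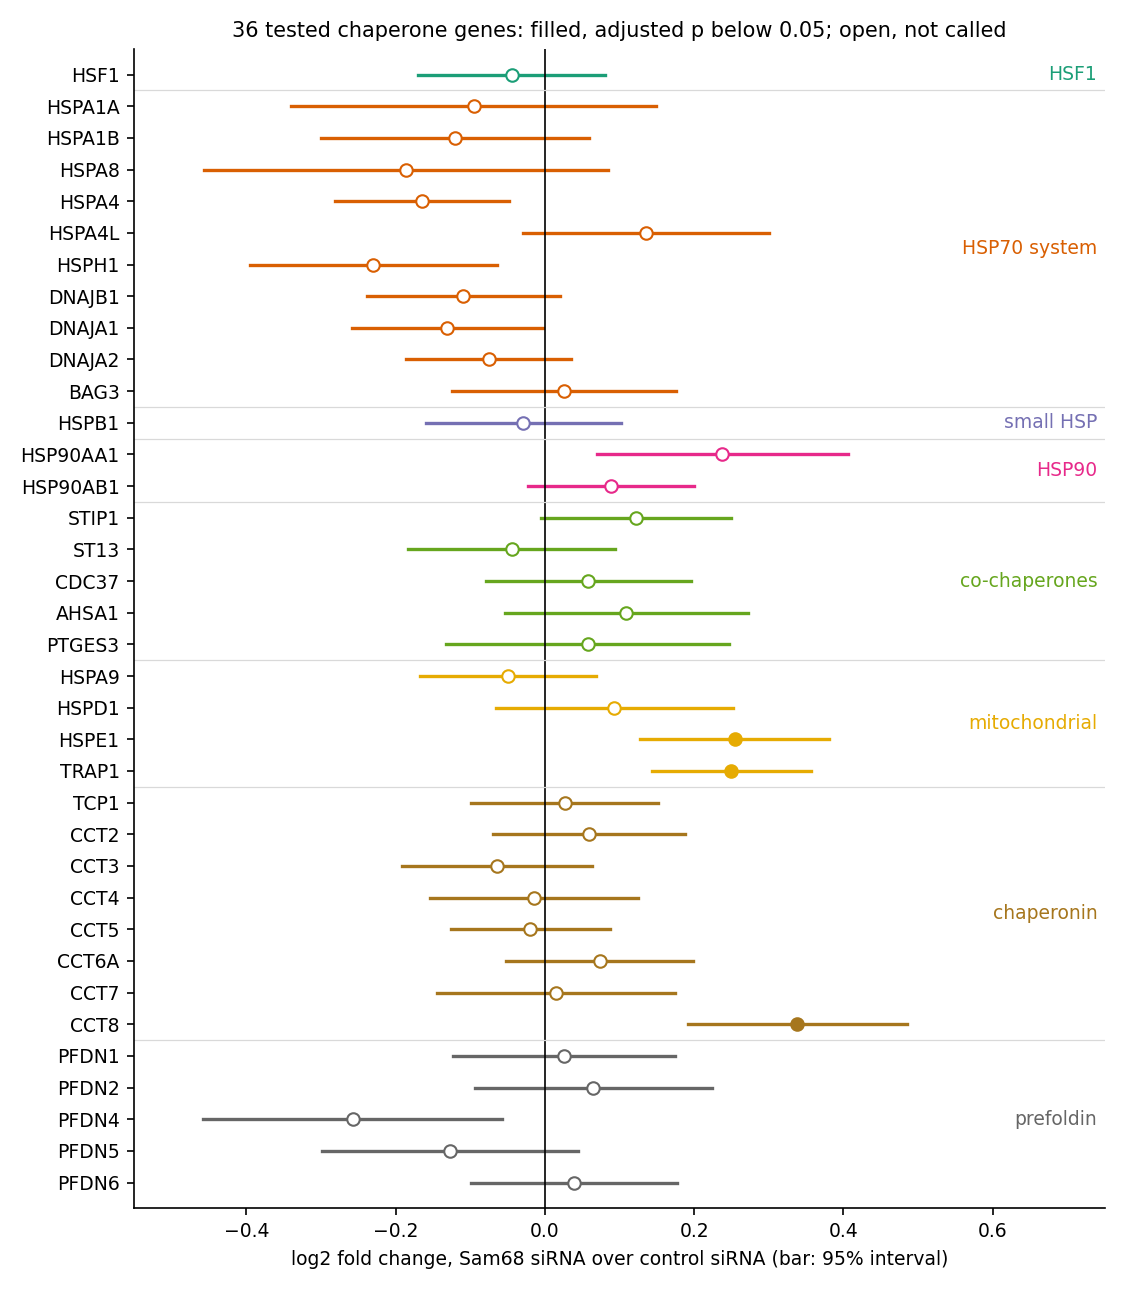
The log2 fold change of each tested gene, Sam68 siRNA over control siRNA (x axis), with its 95% interval from edgeR's quasi-likelihood test, grouped by role down the page. The 36 estimates lie between -0.26 and 0.34, and the filled points mark CCT8, HSPE1 and TRAP1, which rose.

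As a set these were abundant transcripts in both groups. The 37 genes took 15070 to 16520 TPM of each library, 33 of them averaged over 100 TPM, and 27 of the 36 tested lay in the top 10% of tested genes by TPM (over 148 TPM). HSP90AB1, the constitutive cytosolic HSP90, had the highest level, at 2410 ± 76.9 TPM with Sam68 siRNA and 2256 ± 91.2 TPM with control siRNA (SD, n = 3 each). HSPA4L was the lowest of the tested members, at 13.9 ± 0.730 TPM with Sam68 siRNA and 12.6 ± 1.35 TPM with control siRNA. HSPB8, a small heat shock protein that works with BAG3 in selective autophagy, had 10, 4 and 8 counts with Sam68 siRNA and 11, 10 and 16 counts with control siRNA, and was left out by the filter on low counts. With no filter its log2 fold change was -0.79 (adjusted p = 0.326).

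HSF1, the master regulator of the heat shock response, had 169, 166 and 155 CPM with Sam68 siRNA, against 162, 170 and 174 CPM with control siRNA. These ranges overlapped, and the log2 fold change was -0.04 ± 0.06 (SE; adjusted p = 0.635). HSF1 is known to be controlled mainly at the protein level, which was not measured here. A heat shock element is built from inverted repeats of the 5-base unit NGAAN, and the windows around RefSeq start sites (250 bases before to 50 after, GRCh38.p14) were searched for a head-to-head or tail-to-tail pair of units, GAANNTTC or TTCNNGAA. Each of these letter strings is its own reverse complement, so a search of one strand covers both. Windows of 33 of the 37 genes were searched, and 17 of the 33 (51.5%) held at least 1 pair, as did 4417 of all 27305 genes with a window (16.2%). The other 4 members, HSF1 among them, had no listed window or were left out by location. This cut by location was applied to the members only, so the shares of members and of all genes may follow different rules. A 3-unit element, GAANNTTC followed by NNGAA or its reverse complement, was present in 5 of the 33, namely DNAJA1, HSP90AA1, HSP90AB1, HSPA8 and HSPD1 (15.2%), and in 0.608% of all genes. Every 3-unit match contains a pair already counted. Other runs before start sites, such as those of HSPA4L and DNAJA1, are not printed. The stretches below show a selection of such runs before RefSeq start sites of genes from the HSP70, HSP90 and mitochondrial groups. They are given in the direction of transcription, with the matching letters in capitals.
HSPA1A (chr6:31815431-31815450, plus strand): accctgGAATATTCccgacc
HSPA1B (chr6:31827627-31827646, plus strand): cccctgGAATATTCccgacc
HSPA8 (chr11:123062173-123062197, minus strand): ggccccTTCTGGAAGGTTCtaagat
DNAJB1 (chr19:14518431-14518450, minus strand): gctctgGAAGCTTCcgccgg
HSP90AA1 (chr14:102087114-102087138, minus strand): gggttcTTCCGGAAGGTTCgggagg
HSP90AB1 (chr6:44247825-44247849, plus strand): agattgTTCTGGAAGCTTCtggatt
HSPD1 (chr2:197500062-197500090, minus strand): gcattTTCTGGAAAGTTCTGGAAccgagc
A match describes the sequence only, and binding was not measured here. Of these 7 genes none was called changed, with log2 fold changes between -0.19 and 0.24. The windows of the 3 genes that rose, CCT8, HSPE1 and TRAP1, held no such pair. Neither did those of HSPH1 and BAG3, among others that were not called. HSPE1 lies head to head with HSPD1, and the 18-base HSPD1 run shown above ended 294 bases before the RefSeq start of HSPE1, outside its window. By GENCODE 29 the HSPD1 stretch overlaps an annotated untranslated region of HSPE1. The HSPA8 and HSP90AA1 stretches overlap annotated untranslated regions of their own genes.

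No gene of the HSP70 system was called, and 8 of the 10 had a negative log2 fold change, with a median of -0.12. Of all 12351 tested genes, 6086 had a positive log2 fold change. Signs of genes read from the same libraries are not independent. HSPA1A and HSPA1B, the stress-inducible HSP70 genes and the usual reporters of HSF1 activity, were both abundant without heat shock. HSPA1A had 404, 357 and 288 CPM with Sam68 siRNA, against 390, 356 and 375 CPM with control siRNA. HSPA1B had 357, 331 and 282 CPM with Sam68 siRNA, against 339, 343 and 372 CPM with control siRNA. Sam68 siRNA replicate 3 was the lowest of the 6 libraries for both genes, and the other Sam68 siRNA libraries lay within or above the control range for HSPA1A. The coding sequences of HSPA1A and HSPA1B are 99.8% identical (1919 of 1923 bases), so reads could have been assigned to either one, and their sum was tested as well. The summed counts gave 761, 687 and 570 CPM with Sam68 siRNA, against 729, 699 and 747 CPM with control siRNA (log2 fold change -0.11 ± 0.09 SE, adjusted p = 0.448). Without Sam68 siRNA replicate 3 the fold change of the sum was -0.01 on the log2 scale.

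HSPA8, the constitutive HSC70 that folds new proteins and uncoats clathrin vesicles, had 2034, 1881 and 1552 CPM with Sam68 siRNA, against 1920, 1947 and 2353 CPM with control siRNA. The groups overlapped, with a log2 fold change of -0.19 ± 0.12 (SE; adjusted p = 0.312). It was -0.09 without control replicate 5 and -0.09 without Sam68 siRNA replicate 3. HSPA4 and HSPH1, members of the HSP110 family that exchange nucleotide on HSP70, came closer to the threshold. HSPA4 had 277, 272 and 268 CPM with Sam68 siRNA, against 310, 295 and 311 CPM with control siRNA. HSPH1 had 221, 207 and 180 CPM with Sam68 siRNA, against 248, 224 and 240 CPM with control siRNA. In both genes every Sam68 siRNA library lay below every control library, yet neither passed (HSPA4 -0.16 ± 0.05, adjusted p = 0.0514; HSPH1 -0.23 ± 0.08, adjusted p = 0.0542; log2 fold change ± SE). These calls depend on the method: DESeq2 called both as falls, with adjusted p-values of 0.0373 for HSPA4 and 0.0299 for HSPH1. Without Sam68 siRNA replicate 1, HSPH1 was called as a fall in edgeR's quasi-likelihood test as well (adjusted p = 0.0356).

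The J-domain partners lay in a narrow range. DNAJB1, a stress-inducible J-domain protein, had 145, 144 and 138 CPM with Sam68 siRNA, against 152, 145 and 164 CPM with control siRNA (adjusted p = 0.222). DNAJA1, a farnesylated J-domain protein, had 392, 403 and 374 CPM with Sam68 siRNA, against 445, 410 and 425 CPM with control siRNA (adjusted p = 0.144). DNAJA2, its close relative, had a log2 fold change of -0.08 ± 0.05 (SE; adjusted p = 0.330). The Sam68 siRNA libraries lay below all controls for DNAJA1 and DNAJA2 and overlapped them for DNAJB1. BAG3, the exchange factor that links HSP70 to autophagy and an HSF1 target, had 201, 191 and 186 CPM with Sam68 siRNA, against 172, 190 and 206 CPM with control siRNA, with overlapping ranges. HSPA4L, the remaining HSP110 member, had 54.5, 51.8 and 49.9 CPM with Sam68 siRNA, against 50.3, 48.2 and 43.7 CPM with control siRNA (log2 fold change 0.14, adjusted p = 0.235, and 0.08 without control replicate 5). HSPB1, the small heat shock protein HSP27, had 167, 185 and 176 CPM with Sam68 siRNA, against 188, 178 and 172 CPM with control siRNA, and its log2 fold change of -0.03 ± 0.06 (SE) did not pass (adjusted p = 0.783).

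Spread between libraries of 1 group was uneven in the HSP70 system. Sam68 siRNA replicate 3 was the lowest Sam68 siRNA library for 9 of its 10 genes, and the lowest of all 6 libraries for 7 of them, among them HSPA8, HSPH1 and DNAJB1. Over all 36 tested members it was the lowest Sam68 siRNA library for 24 and the lowest of all 6 for 12. The SD of log2 CPM was 0.25 for HSPA1A with Sam68 siRNA and 0.07 with control siRNA. For HSPA8 it was 0.20 with Sam68 siRNA and 0.16 with control siRNA. The SD was also larger with Sam68 siRNA for HSPA1B and HSPH1. It was larger with control siRNA for HSPA4, HSPA4L, DNAJB1, DNAJA1, DNAJA2 and BAG3. Over all tested members the median SD was 0.06 with Sam68 siRNA and 0.07 with control siRNA, and over all genes at that level it was 0.06 with Sam68 siRNA and 0.09 with control siRNA.

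**Figure D2:**
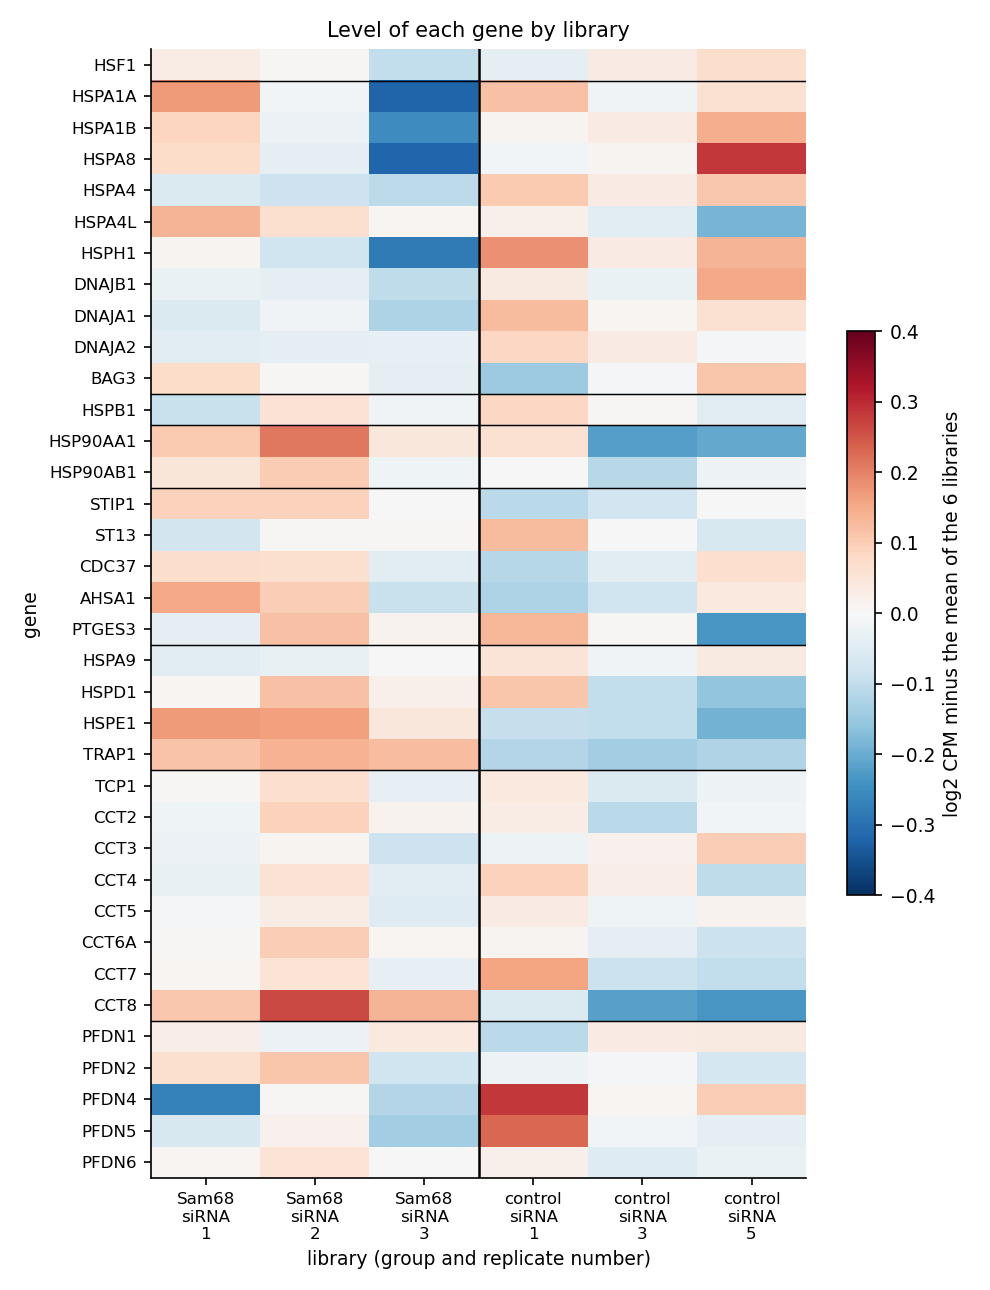
Level of each tested gene in each library as log2 CPM minus that gene's mean over the 6 libraries, with Sam68 siRNA libraries left of the line and control siRNA libraries right of it, and roles separated by horizontal lines. HSPA1A, HSPA1B, HSPA8 and HSPH1 are lowest in Sam68 siRNA replicate 3, and TRAP1, HSPE1 and CCT8 are higher in every Sam68 siRNA library than in any control.

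The cytosolic HSP90 genes were not called. HSP90AA1, the inducible HSP90 alpha, had 1867, 2013 and 1795 CPM with Sam68 siRNA, against 1811, 1493 and 1509 CPM with control siRNA. Sam68 siRNA replicate 3 lay below control replicate 1, so the groups overlapped, and the gene missed the threshold narrowly (log2 fold change 0.24 ± 0.08 SE, 95% interval 1.05-fold to 1.32-fold, adjusted p = 0.0515). Without control replicate 1 it was called, at a log2 fold change of 0.33 (adjusted p = 0.00207), and without control replicate 5 it was not, at 0.20 (adjusted p = 0.102). DESeq2 also called it (adjusted p = 0.0210). HSP90AB1, the constitutive HSP90 beta, had 2456, 2546 and 2344 CPM with Sam68 siRNA, against 2370, 2196 and 2341 CPM with control siRNA, and was not called (log2 fold change 0.09 ± 0.05 SE, adjusted p = 0.251). On the TPM scale HSP90AA1 stood at 0.514, 0.534 and 0.518 of HSP90AB1 with Sam68 siRNA, and at 0.517, 0.459 and 0.436 with control siRNA (two-sided exact permutation p = 0.2).

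The 5 co-chaperones had log2 fold changes between -0.04 and 0.12, and none was called. STIP1, the adaptor that holds HSP70 and HSP90 together, had 431, 431 and 404 CPM with Sam68 siRNA, against 375, 384 and 405 CPM with control siRNA (adjusted p = 0.168). AHSA1, an activator of the HSP90 ATPase, had 116, 112 and 98.4 CPM with Sam68 siRNA, against 96.1, 99.0 and 107 CPM with control siRNA (adjusted p = 0.334). Both sets of libraries overlapped, as did those of CDC37, which loads kinases onto HSP90, and of ST13, an HSP70 interactor. PTGES3, the p23 protein that closes the HSP90 cycle, ranged from 418 to 465 CPM with Sam68 siRNA and from 365 to 470 CPM with control siRNA.

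Of the 4 mitochondrial chaperones, 2 rose. TRAP1, the mitochondrial HSP90 (chr16:3651639-3717553, minus strand, ENSG00000126602), had 157, 160 and 158 CPM with Sam68 siRNA, against 134, 132 and 133 CPM with control siRNA. Within each group its libraries differed by only a few CPM, and the rise was 1.19-fold (95% interval 1.10 to 1.28; log2 fold change 0.25 ± 0.05 SE, adjusted p = 0.00516). HSPE1, the HSP10 lid of the mitochondrial chaperonin (chr2:197500140-197503449, plus strand, ENSG00000115541), had 149, 148 and 137 CPM with Sam68 siRNA, against 124, 124 and 116 CPM with control siRNA. It rose 1.19-fold (95% interval 1.09 to 1.30; log2 fold change 0.25 ± 0.06 SE, adjusted p = 0.0113). Without control replicate 5 both rose still, TRAP1 with a log2 fold change of 0.25 (adjusted p = 0.00596) and HSPE1 with 0.22 (adjusted p = 0.0186). The call of HSPE1 was lost without Sam68 siRNA replicate 2 (adjusted p = 0.0628).

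HSPD1, the HSP60 ring that HSPE1 caps, had 720, 776 and 726 CPM with Sam68 siRNA, against 773, 668 and 642 CPM with control siRNA, and did not pass (log2 fold change 0.09 ± 0.07 SE, adjusted p = 0.401). This value rested on single controls, being 0.18 without control replicate 1 (adjusted p = 0.0508) and 0.04 without control replicate 5. The TPM of HSPE1 was 0.710, 0.655 and 0.645 of that of HSPD1 with Sam68 siRNA, and 0.551, 0.634 and 0.619 of it with control siRNA. The ratios did not overlap between groups, though narrowly (0.645 against 0.634), with a log2 difference of 0.16. The two-sided exact permutation p was 0.1, the smallest that 3 against 3 libraries can give. HSPE1 had been called in these same values, so its ratio adds no separate support. HSPA9, the mitochondrial HSP70 that pulls proteins through the import channel, had 403, 408 and 417 CPM with Sam68 siRNA, against 431, 412 and 427 CPM with control siRNA (adjusted p = 0.567). The exons of HSPE1 and HSPD1 share 281 bases on opposite strands, HSPD1 has 538% of the counts of HSPE1, and GENCODE 29 names 26 pseudogenes of HSPE1, none of them in the count table. Since the strand setting of the counting is not known, the level of HSPE1 is uncertain. TRAP1 shares 1531 exon bases with DNASE1, a gene with 7.42% of its counts, and no pseudogene is named after it.

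**Figure D3:**
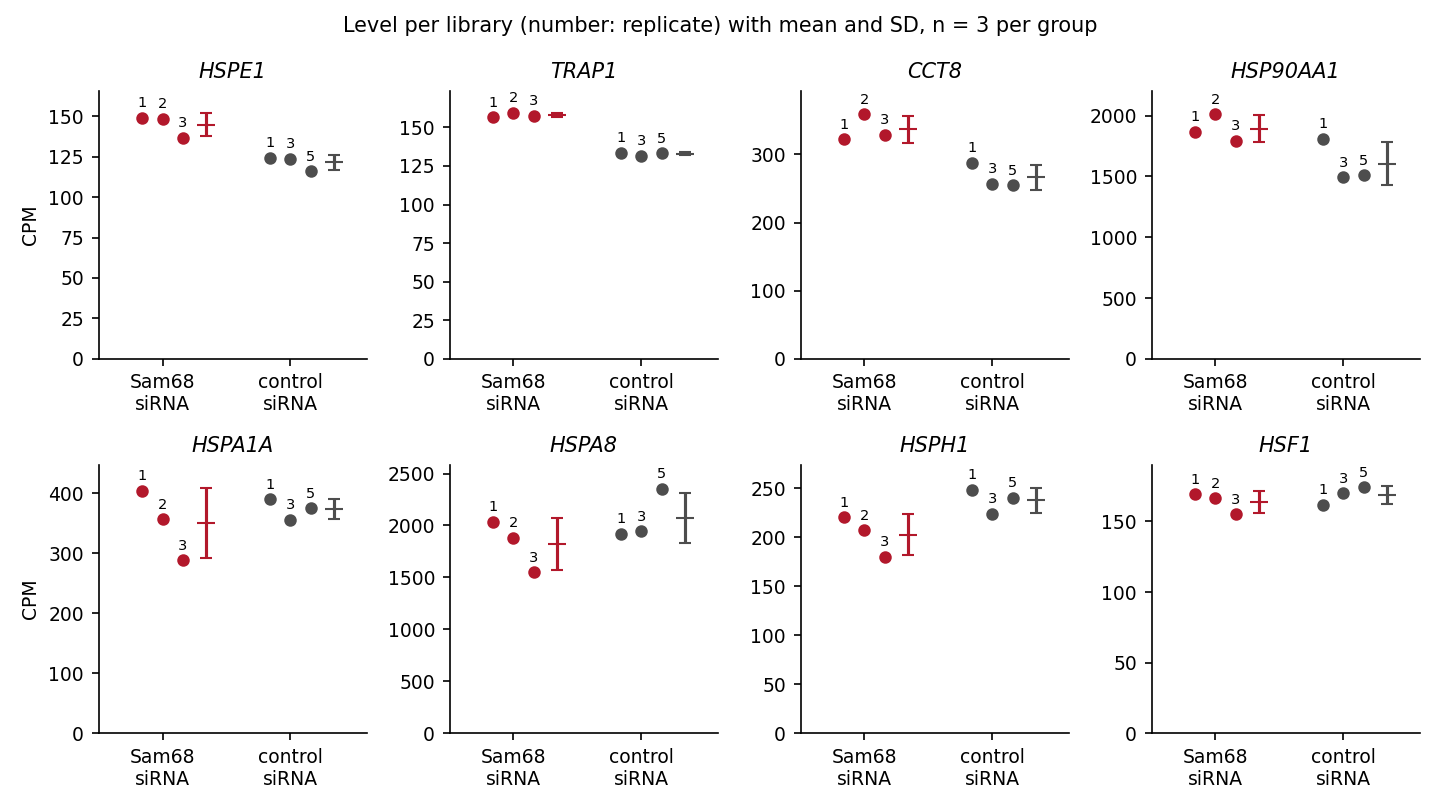
CPM per library (y axis, from 0) of 8 genes, each panel with the 3 Sam68 siRNA libraries left of the 3 control siRNA libraries, points for libraries and bars for the mean and SD. The Sam68 siRNA points of CCT8, HSPE1 and TRAP1 lie above all control points, whereas those of HSP90AA1, HSPA1A and HSPA8 overlap the controls.

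Among the 8 subunits of the cytosolic chaperonin (TRiC), CCT8 alone was called. CCT8, the theta subunit (chr21:29055805-29073797, minus strand, ENSG00000156261), had 322, 359 and 329 CPM with Sam68 siRNA, against 288, 257 and 255 CPM with control siRNA. The rise was 1.26-fold (95% interval 1.14 to 1.40; log2 fold change 0.34 ± 0.07 SE, adjusted p = 0.00555), the largest among the 36 tested members, and it was 0.31 on the log2 scale without control replicate 5 (adjusted p = 0.00384). The other 7 subunits had log2 fold changes between -0.06 and 0.07, with adjusted p-values from 0.404 to 0.911. CCT8 overlaps no exon of another gene in the count table, and GENCODE 29 names 1 pseudogene of it.

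The subunits assemble in equal numbers, but their transcripts were not equal in either group. CCT5, the epsilon subunit, was the most abundant, at 1095, 1090 and 1055 TPM with Sam68 siRNA and 1125, 1101 and 1044 TPM with control siRNA. CCT2, the beta subunit, had 351, 367 and 356 TPM with Sam68 siRNA and 362, 334 and 331 TPM with control siRNA. The TPM of CCT8 was 0.768, 0.816 and 0.797 of the geometric mean of the other 7 subunits with Sam68 siRNA, and 0.658, 0.625 and 0.615 of it with control siRNA. These ratios did not overlap (log2 difference 0.33, two-sided exact permutation p = 0.1, the smallest possible), and CCT8 was singled out after its values were seen. Within the groups the subunits shared much of their order of libraries. Sam68 siRNA replicate 2 was the highest Sam68 siRNA library in CPM for all 8 subunits, and control replicate 1 the highest control for 7 of them. Over all 36 tested members, these 8 included, the same libraries were the highest of their group for 21 and 24 genes. Among the 10 genes of the HSP70 system, Sam68 siRNA replicate 2 was the highest for 1 and control replicate 1 for 5.

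**Figure D4:**
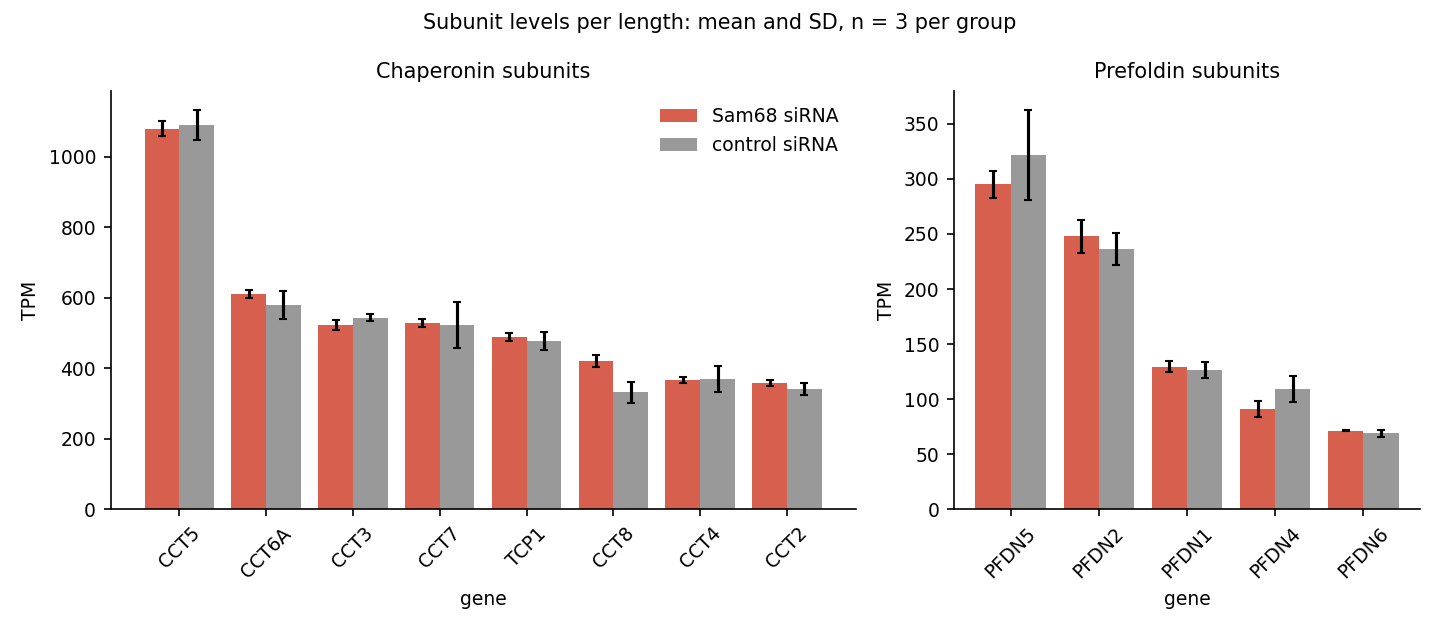
Mean TPM (y axis, from 0) of the chaperonin and prefoldin subunits, Sam68 siRNA bars left of control siRNA bars for each subunit, with error bars for the SD over 3 libraries. CCT5 is the highest chaperonin subunit in both groups, and CCT8 stands higher with Sam68 siRNA.

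None of the 5 prefoldin subunits was called. PFDN4 came closest, with 39.5, 47.8 and 43.9 CPM with Sam68 siRNA, against 57.9, 47.9 and 51.0 CPM with control siRNA (log2 fold change -0.26 ± 0.09 SE, adjusted p = 0.0716). Every Sam68 siRNA library lay below every control, though Sam68 siRNA replicate 2 and control replicate 3 were nearly equal. PFDN5, which also binds MYC and is known as MM-1, had 298, 306 and 282 TPM with Sam68 siRNA and 366, 313 and 286 TPM with control siRNA. PFDN6, a beta-type subunit, had 71.6, 71.6 and 70.6 TPM with Sam68 siRNA and 72.1, 69.6 and 65.6 TPM with control siRNA. The TPM ratio of PFDN5 to PFDN6 did not overlap between groups (log2 difference -0.16, two-sided exact permutation p = 0.1, the smallest possible). PFDN1 and PFDN2 had log2 fold changes of 0.03 and 0.07, with adjusted p-values of 0.832 and 0.573. Levels of PFDN6 are uncertain, because it shares exon bases with WDR46 and RGL2, which have 145% and 106% of its counts. DNAJB1 shares 211 exon bases with TECR, a gene with 82.5% of its counts. PFDN1 shares 39 with CYSTM1, which has 71.1% of its counts, so the same limit holds for both. In all, 12 of the 37 genes share exon bases with another gene of the table, and 16 have named pseudogenes, HSPA8 and HSPD1 with 17 each and ST13 with 16.

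Other genes of the chaperone network were taken from 7 lists of 107 genes, of which 95 were tested. Of these 6 rose, 9 fell and 80 did not pass, a called share of 15.8% against the 19.1% of all tested genes. No gene was called by edgeR's test among the 12 tested HSP70 proteins and exchange factors outside the 37, with 2 at an unadjusted p below 0.05. Among the 30 other J-domain proteins 1 rose and 5 fell, a called share of 20%, near that of all tested genes. At an unadjusted p below 0.05, 10 of them passed. DNAJC9, a J-domain protein that also binds histones, rose to 72.3 ± 3.03 CPM with Sam68 siRNA, against 52.6 ± 4.47 CPM with control siRNA (adjusted p = 0.00198). DNAJB2, a J-domain protein that sorts clients to the proteasome, fell to 57.8, 61.4 and 57.1 CPM with Sam68 siRNA, against 88.5, 73.4 and 78.0 CPM with control siRNA (log2 fold change -0.44). DNAJC24, a cofactor of diphthamide synthesis, and DNAJC6, the auxilin that helps HSC70 to uncoat clathrin, fell by 0.44 and 0.41 on the log2 scale.

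Among the 22 tested HSP90 co-chaperones and R2TP genes, 3 rose and 2 fell, a called share of 22.7% against 19.1% of all tested genes. At an unadjusted p below 0.05, 7 of them passed. RUVBL2, an ATPase of the R2TP complex, rose to 119 ± 6.42 CPM with Sam68 siRNA, against 88.2 ± 4.37 CPM with control siRNA (adjusted p = 0.00106). RUVBL1, its partner in the ATPase ring, rose to 95.3, 99.5 and 90.2 CPM with Sam68 siRNA, against 84.4, 76.6 and 77.6 CPM with control siRNA (adjusted p = 0.0214), with TTI1 as the other rise. UNC45A, a myosin chaperone, fell to 101, 101 and 97.9 CPM with Sam68 siRNA, against 129, 118 and 123 CPM with control siRNA (log2 fold change -0.30). FNIP2, which slows the HSP90 ATPase, fell to 6.72 CPM with Sam68 siRNA, against 10.1 CPM with control siRNA. RUVBL1, DNAJC9 and UNC45A share exon bases with other genes of the table, which leaves their levels uncertain.

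Of the 12 tested heat shock factors and HSF1-induced genes outside the 37, none rose and 1 fell by edgeR's test. That is 8.33% called, against 19.1% of all tested genes. At an unadjusted p below 0.05, 5 of the 12 passed, as did 33.1% of all tested genes. IER5, which promotes HSF1 activity, fell to 112 CPM with Sam68 siRNA, against 139 CPM with control siRNA (log2 fold change -0.32, adjusted p = 0.00503). HSF2, the second heat shock factor, did not pass (log2 fold change 0.21, adjusted p = 0.172), nor did the polyubiquitin gene UBB (0.15, adjusted p = 0.0747). Of the 13 other mitochondrial proteostasis genes 1 rose (7.69%). CLPP, the protease subunit of the matrix ClpXP complex, rose to 53.1, 54.0 and 53.1 CPM with Sam68 siRNA, against 40.4, 41.2 and 38.9 CPM with control siRNA (adjusted p = 0.00158). Among 12 chaperonin, prefoldin and tubulin folding cofactors, PDCL3 rose and PDRG1 fell (16.7% called), by 0.29 and -0.28 on the log2 scale.

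Without control replicate 5 the count over the 37 genes was unchanged, with 3 rises and no fall, when 10.2% of all tested genes rose and 11.2% fell.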

How the data were processed

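Raw read counts and TPM values for 21462 genes with Ensembl identifiers are what the authors deposited, per the file headers. Per the submitters' processing notes, coordinates are on hg38. No source used here names the aligner, the counter or whether counting used strand, and the kit is not named as directional. Libraries held 16099488 to 17336651 counts.

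The deposited counts were tested with edgeR 4.0.16 in R 4.3.3: filterByExpr (minimum count 10, minimum total 15), TMM scaling, and the robust quasi-likelihood F-test of Sam68 siRNA over control siRNA, with Benjamini-Hochberg adjustment over all 12351 tested genes. A gene with an adjusted p below 0.05 is called, and only such a gene is said to have risen or fallen. CPM are counts relative to the TMM-scaled library size. SE and 95% intervals of a log2 fold change are those that the F statistic implies. TPM as deposited served to set genes of different length side by side and for ratios, compared by a two-sided exact permutation test.

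The members and the lists of other chaperone genes were chosen with earlier results of these data known. The naming rule took all members, KHDRBS1 and up to 4 called genes of each other list by smallest p; TTI1, HSF2 and UBB were named outside it, after their values were seen. Promoter windows came from RefSeq (GRCh38.p14), exon overlaps and pseudogene names from GENCODE 29. Alternatives were DESeq2 1.42.0, limma-voom and, on log2(TPM + 1), limma-trend (limma 3.58.1), scaling by RLE or the upper quartile, no filter, no robust estimation, at least 50 counts in 3 libraries, the replicate number as a block, and each library left out. Python 3.11.15 was used for sequences. The steps were tested on simulated data.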

Additional observations from a re-analysis of the deposited data

How the results depend on the processing

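KHDRBS1 stayed called and lower with Sam68 siRNA under all 15 alternatives. TRAP1 and CCT8 stayed called in each of the 6 fits that left out a library. The count of members that rose was 4 under upper-quartile scaling, DESeq2, limma-voom, no filter and the stricter filter, HSP90AA1 being the added gene, and 2 to 4 with a library left out. The count that fell was 1 under RLE scaling (HSPA4), limma-voom (HSPA4) and no filter (HSPH1), 2 under DESeq2 and the stricter filter (HSPA4 and HSPH1), and 0 to 1 with a library left out. Over all tested genes 2358 were called, and 1112 to 2666 with a library left out; other chaperone genes gave 3 to 7 rises and 5 to 13 falls. The causes were not tested.

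Replicate numbers 1 and 3 occur in both groups, and same-numbered libraries deviated with correlations of -0.111 and 0.0883. Differently numbered libraries reached -0.191 and 0.158, so these correlations cannot tell whether the numbers pair the samples. In a fit with the replicate number as a block, Sam68 siRNA replicate 2 and control replicate 5 stood alone and added nothing to the contrast. That fit thus compared replicates 1 and 3 only. It called 1046 genes, 0 rises among the members, and 3 rises and 4 falls among the other chaperone genes. In it the adjusted p-values were 0.150 for HSPE1, 0.0892 for TRAP1 and 0.0949 for CCT8. The block gave log2 fold changes of -0.0791 for PTGES3, -0.00382 for TCP1 and -0.0478 for CCT7, against the other sign without it. Leaving out a library also turned the sign of log2 fold changes near 0 that were not called, over ranges of -0.0374 to 0.0905 for BAG3, -0.0717 to 0.00822 for HSPB1, -0.00607 to 0.0537 for TCP1, -0.0296 to 0.104 for CCT7, -0.211 to 0.0195 for HSPA1A, -0.0868 to 0.0101 for ST13, -0.0654 to 0.0304 for CCT4, -0.0201 to 0.0501 for PFDN1 and -0.0363 to 0.144 for PTGES3. HSPB8, with 4 to 16 counts a library, was left out by the main filter; where it was tested, with no filter or with a library left out, its log2 fold change lay between -1.07 and -0.50 and was not called.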
